A study of Mus musculus with 36 samples.

Results

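Adipose progenitor surface markers are 10 genes whose proteins are used to recognise or sort the progenitor cells of fat, namely Pdgfra, Pdgfrb, Cd34, Ly6a, Pi16, Dpp4, Thy1, Cd24a, Cd9 and Eng. They were taken by name from the 55536 genes counted in each library, by a rule that uses no expression value. The libraries came from a mouse brown pre-adipocyte line in which Rxra, the gene for retinoid X receptor alpha, had been disrupted by CRISPR/Cas9. All 36 libraries carry this Rxra-/- background and come from 2 single-cell clones, named 48 and 66, isolated after editing of the same clonal parent line. Each clone was given Rxra back by retroviral transduction, either the WT form or the SA form (S22A, serine 22 replaced by alanine), and selected with hygromycin. Cells were grown to confluence in medium with insulin and T3, which stayed present throughout, and collected then (day 0) and after 2 and 6 further days, with dexamethasone, IBMX and indomethacin added for the first 2 days. Each clone, genotype and day had 3 replicate libraries, which gives 12 groups of 3. The clones were sequenced in separate library pools, so clone and pool cannot be told apart, and each Rxra form rests on transduced populations of 2 clones.

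White and brown fat cells arise from fibroblast-like progenitors that lie in the stroma around vessels. PDGFRα and PDGFRβ are receptor tyrosine kinases that bind platelet-derived growth factors and keep such cells proliferating. Most progenitors also carry CD34, a sialomucin, and SCA1, the product of Ly6a, which is held in the membrane by a lipid anchor like THY1 and CD24. DPP4, a membrane peptidase, and PI16, a peptidase inhibitor, mark an early interstitial progenitor, while CD24 and CD9 have been used to divide progenitors into subsets. CD9 is a tetraspanin, a membrane organiser, and endoglin, the product of Eng, is a co-receptor for the TGF-β family. Many of these proteins are lost as a progenitor becomes a fat cell.

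Total counts per library lay between 11351078 and 24349263. The first replicate of clone 48 SA on day 0 had the lowest total and the highest share of counts on Lars2 and CT010467.1 (4.27%, against 0.461% in the next library), and results were recomputed without it. Rxra itself was counted in every library, with 92.5 to 233 CPM (read counts relative to the total of the library, scaled by TMM, the trimmed mean of M-values) on day 0, 399 to 711 CPM on day 2 and 182 to 347 CPM on day 6. Counts cannot tell the WT and SA forms apart, nor the re-expressed from the edited transcript, so they do not check the genotype labels. Same-numbered WT and SA libraries deviated together from their group means. The 6 libraries of a clone and day were therefore taken as 3 pairs rather than 6 unrelated cultures. On day 0 the correlation of these deviations was weaker in some pairs. It was 0.432, 0.176 and 0.359 in clone 48 and 0.921, 0.236 and 0.71 in clone 66 for replicates 1, 2 and 3. Fits without this pairing can give p-values that are too small for comparisons of days or clones and too large for SA against WT. The deposited description calls the replicates technical, whereas the study's methods describe cultures grown as independent replicates. If they were technical, p-values measure only the spread between these libraries.

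The labelled cell type was checked against its markers. Of its 8 markers 6 were tested, and all 6 rose by day 2, among them Adipoq, Plin1, Pparg and Zfp423. Ucp1, which encodes the heat-producing protein of brown fat, stayed at no more than 5 counts in every library. Ebf2, a brown pre-adipocyte factor, had 26.1 ± 6.33 CPM (SD, n = 6) on day 0 in clone 48 and 0.278 ± 0.105 CPM in clone 66. Of the 7 endothelial markers, Cdh5, Kdr and Emcn never exceeded 3 counts in a library, and the summed level of the list was 0.366 to 2.43 CPM. Of the 7 haematopoietic markers, Ptprc, Adgre1, Itgam and Cd3e never exceeded 3 counts, and the list summed to 2.77 to 12.7 CPM. That list was lower on day 2 than on the other days, with 3.95 to 5.85 CPM in clone 48 and 2.77 to 4.03 CPM in clone 66, and most of it was Cd68. The 7 mural markers summed to 31.6 to 49.9 CPM on day 0 and 161 to 217 CPM on day 6, mostly through Mcam, with Abcc9 and Kcnj8 never above 3 counts. Of the 4 mural markers tested, 1 rose and 3 fell by day 2, when 35.8% of all genes tested rose and 37.5% fell. From day 2 to day 6 all 4 rose, when 31.9% of all genes rose and 30.1% fell. The 4 mesothelial markers summed to at most 1.76 CPM. These lists moved over the same days as the members did, and their part in the members' changes was not tested.

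Dpp4 and Thy1 were at or near 0, and Pi16 was low. On day 0 a list of 11 other markers of the interstitial progenitor summed to 732 to 970.5 CPM in clone 48 and 488 to 628 CPM in clone 66. Only part of that list was abundant. Of the 11, 7 passed the filter on low counts, and Cd55, Bmp7 and Efhd1 never exceeded 3 counts in a library. Dpp4 had 3 counts in all 36 libraries together, 1 each in 3 libraries. All 3 were clone 48 libraries of day 0. Thy1 had 25 counts in all, none in 21 libraries and at most 6 in any. A library with no count still allows up to 3 counts, which is 0.115 to 0.243 CPM depending on its depth, and this limit covers counting error only. Pi16 was counted in every library but at only 2 to 18 counts. Dpp4, Thy1 and Pi16 therefore stayed below 1 CPM in every library and on every day. Dpp4 and Thy1 did not pass the filter on low counts and were not tested, while the other 8 members were.

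The remaining markers spanned a wide range of abundance. Levels between genes are compared here only as CPM per kilobase of exon (RPKM). On day 0 in clone 48, Cd9 had 85.0 ± 27.1 RPKM, Cd24a 82.0 ± 15.2 RPKM and Ly6a 68.8 ± 8.91 RPKM (SD, n = 6), and the ranges of neighbours in this order overlapped. Pdgfrb followed with 26.6 ± 4.69 RPKM and Pdgfra with 13.3 ± 2.41 RPKM, each separate from its neighbours. Eng had 0.658 ± 0.0733 RPKM and Cd34 0.529 ± 0.191 RPKM, which overlapped each other but lay far below the first 5. In clone 66 on day 0 the order was Cd9 (63.4 ± 28.5 RPKM), Pdgfrb (49.8 ± 15.8), Cd24a (21.3 ± 3.56), Ly6a (18.4 ± 3.51) and Pdgfra (5.02 ± 1.51), again far above Eng (0.605 ± 0.092) and Cd34 (0.214 ± 0.0835). By day 6 Cd9 had the highest mean level in both clones, with 39.6 ± 10.6 RPKM in clone 48 and 32.4 ± 6.85 RPKM in clone 66, although in clone 66 its range overlapped that of Pdgfrb (19.2 ± 7.92 RPKM).

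**Figure D1:**
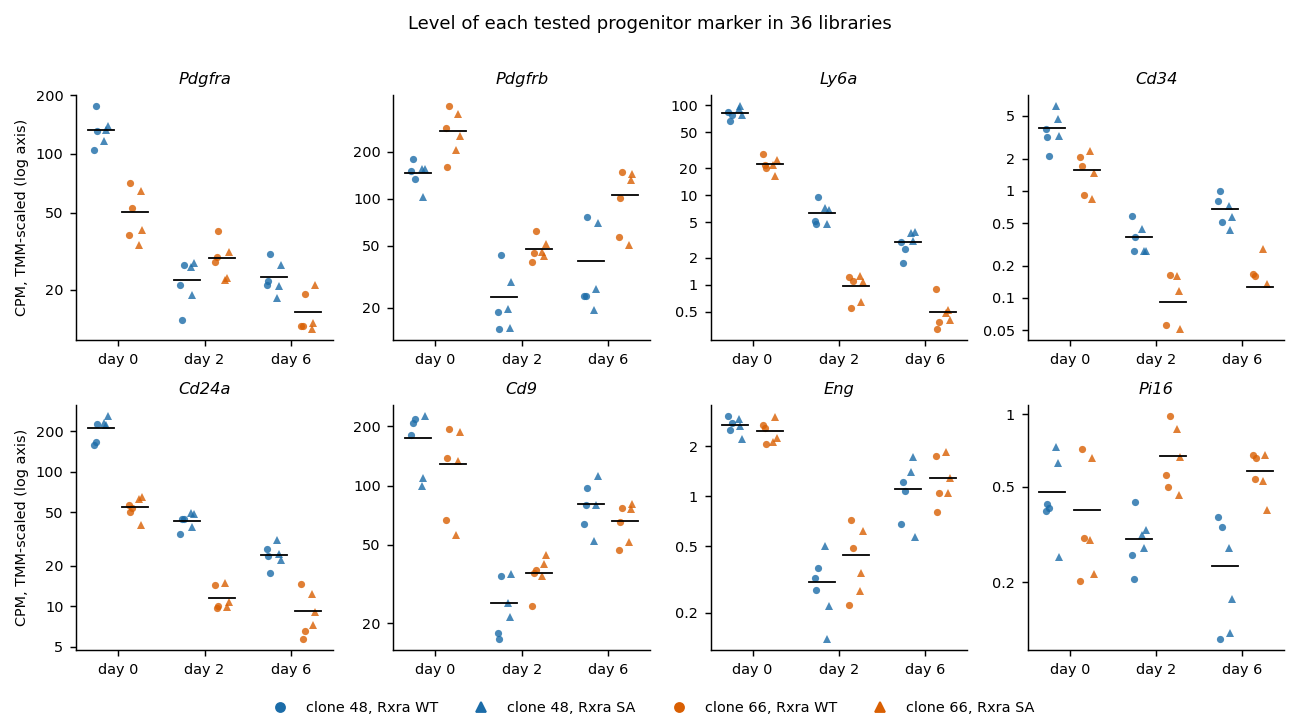
CPM scaled by TMM (log axis) of the 8 tested markers in each of the 36 libraries, by day, with clone 48 in blue, clone 66 in orange, Rxra WT as circles and Rxra SA as triangles. Black lines are means of 6 libraries, and the 3 libraries without a Cd34 count are not drawn. All markers but Pi16 were lower on day 2 than on day 0, and circles and triangles of a clone and day overlap in most panels, an exception being Ly6a in clone 48 on day 6, where the SA libraries (3.07 to 3.83 CPM) lie above the WT libraries (1.74 to 2.98 CPM).

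The first question of the design is what happened to each marker as the cells differentiated. Between day 0 and day 2, 7 of the 10 members fell, none rose, Pi16 did not pass the test and Dpp4 and Thy1 were not tested. Among all 16723 genes tested, 37.5% fell and 35.8% rose, so a change by day 2 was common. The median log2 fold change was -2.44 over the 8 tested members and -0.02 over all genes. Between day 0 and day 6 the same 7 members were lower, against 35.4% of all genes lower and 32.9% higher, with a median log2 fold change of -1.90 over the tested members and -0.03 over all genes. In bulk libraries, fewer cells of a type and less RNA per cell cannot be told apart.

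Pdgfra (GRCm38 chr5:75152292-75198215, plus strand) encodes the receptor that most often defines adipose progenitors. In clone 48 its lowest, median and highest levels were 105, 132 and 176 CPM on day 0, 14.0, 23.8 and 27.6 CPM on day 2 and 18.1, 21.8 and 30.5 CPM on day 6. In clone 66 they were 34.1, 46.7 and 71.0 CPM on day 0, 22.6, 28.7 and 40.0 CPM on day 2 and 12.6, 13.3 and 21.3 CPM on day 6. Clone 48 therefore dropped at once and then stayed level, with day 0 separate from both later days, while in clone 66 day 0 and day 2 overlapped and day 6 lay below both. Over both clones Pdgfra fell by 1.67 ± 0.21 on the log2 scale (SE) from day 0 to day 2 (edgeR quasi-likelihood test, Benjamini-Hochberg adjusted p = 1.04e-08), which is 3.18-fold, and by 2.17 ± 0.21 from day 0 to day 6 (adjusted p = 3.2e-11). Its further fall of 0.50 ± 0.205 between day 2 and day 6 (adjusted p = 0.0337) did not pass without clone 66 replicate 1 (log2 fold change -0.38, adjusted p = 0.114), replicate 2 (-0.37, adjusted p = 0.205) or replicate 3 (-0.42, adjusted p = 0.0811), where leaving out a replicate drops its 6 libraries of that clone.

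Pdgfrb encodes the second receptor, which is also known from mural cells. In clone 48 its lowest, median and highest levels were 103, 152 and 180.1 CPM on day 0, 14.6, 19.1 and 43.3 CPM on day 2 and 19.4, 25.2 and 76.4 CPM on day 6. In clone 66 they were 160.3, 268 and 391 CPM on day 0, 39.1, 45.2 and 62.2 CPM on day 2 and 50.8, 116 and 148 CPM on day 6. Day 0 stood above day 2 without overlap, and on day 6 the libraries of each clone were spread over a more than 2-fold range. Pdgfrb fell by 2.58 ± 0.239 (log2, adjusted p = 8.94e-12) from day 0 to day 2, or 5.99-fold, and rose by 0.97 ± 0.229 (adjusted p = 0.000423) from day 2 to day 6. Within clone 48 this rise did not pass (0.77, adjusted p = 0.0629), although it did in 4 of 14 alternatives. Within clone 66 it passed (1.15, adjusted p = 0.00606), but not without replicate 2 (1.04, adjusted p = 0.0745) or replicate 3 (0.97, adjusted p = 0.0747). Pdgfrb remained lower on day 6 than on day 0 (log2 fold change -1.62 ± 0.23, adjusted p = 1.55e-07).

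The ratio of Pdgfra to Pdgfrb counts, each per exonic base, needs no scaling between libraries and is given as a description. On day 0 it was 0.382 to 0.703 in the 6 libraries of clone 48 and 0.0736 to 0.242 in those of clone 66. On day 2 it was 0.339 to 0.739 in clone 48 and 0.270 to 0.388 in clone 66. On day 6 it was 0.212 to 0.514 in clone 48 and 0.0563 to 0.136 in clone 66. By this measure Pdgfrb was the more abundant receptor in every library, and the clones overlapped on day 2 alone. The measure divides by all annotated exonic bases, 10024 in Pdgfra and 5478 in Pdgfrb, and the length of the expressed transcripts was not examined. In raw counts Pdgfra exceeded Pdgfrb in some clone 48 libraries, such as SA replicate 1 on day 2 (418 against 309).

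**Figure D2:**
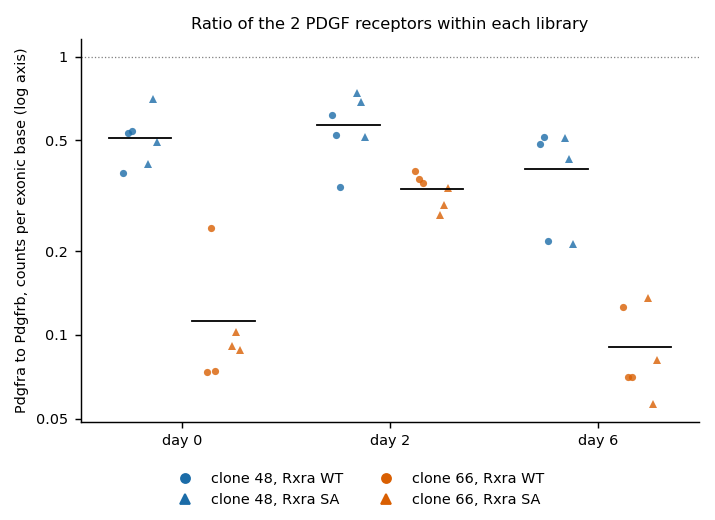
Ratio of Pdgfra to Pdgfrb in each library, as counts per exonic base (log axis), by day, clone (blue 48, orange 66) and Rxra form (circles WT, triangles SA). Black lines are means of 6 libraries, and the dotted line marks equal levels. All libraries lie below 1, and clone 66 rises to between 0.270 and 0.388 on day 2 before falling back to at most 0.136 on day 6.

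Ly6a (chr15:74994877-74998031, minus strand), the SCA1 gene, had the largest fitted fall of the members. In clone 48 its lowest, median and highest levels were 67.8, 81.4 and 97.9 CPM on day 0, 4.76, 5.98 and 9.54 CPM on day 2 and 1.74, 3.03 and 3.83 CPM on day 6. In clone 66 they were 16.2, 21.6 and 28.8 CPM on day 0, 0.553, 1.08 and 1.24 CPM on day 2 and 0.321, 0.441 and 0.902 CPM on day 6. No library of day 0 overlapped a later one of its clone, and by day 6 the counts in clone 66 were down to 6 to 16 per library. Ly6a fell by 4.05 ± 0.165 (log2, adjusted p = 2.29e-21) from day 0 to day 2, which is 16.6-fold, and by a further 1.05 ± 0.176 (adjusted p = 3.7e-06) to day 6, in all 34.3-fold from day 0 (log2 fold change -5.10 ± 0.178, adjusted p = 2.38e-23). The Ly6 genes are close copies of each other, and read pairs that matched more than 1 place were left out of the counts, so levels within this family are uncertain.

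Cd24a (chr10:43578284-43584265, plus strand) and Cd34 (chr1:194938819-194961279, plus strand) fell as well, and neither had regained its day 0 level by day 6. Cd24a had 159, 226 and 259 CPM as its lowest, median and highest level on day 0 in clone 48 and 40.0, 55.2 and 65.3 CPM in clone 66. On day 6 it had 17.6, 24 and 31.0 CPM in clone 48 and 5.68, 8.13 and 14.6 CPM in clone 66. Days 0 and 6 did not overlap in either clone, and the log2 fold change was -2.26 ± 0.137 (adjusted p = 1.58e-16) to day 2 and -2.85 ± 0.141 (adjusted p = 6.04e-19) to day 6, with -0.59 ± 0.135 (adjusted p = 0.000303) between day 2 and day 6. That last fall passed within clone 48 (-0.84, adjusted p = 0.000331). Within clone 66 it did not (-0.33, adjusted p = 0.154), although it did in 2 of 14 alternatives. Cd34 was a low-count gene throughout, with 42 to 81 counts per library in clone 48 and 18 to 47 in clone 66 on day 0, 4 to 9 and 0 to 3 on day 2, and 7 to 17 and 0 to 6 on day 6. Its log2 fold change was -3.57 ± 0.279 (adjusted p = 1.26e-13) to day 2 and -2.83 ± 0.251 (adjusted p = 4.07e-12) to day 6. From day 2 to day 6 the Cd34 difference of 0.74 ± 0.353 (adjusted p = 0.0679) did not pass the test. It did with the replicate number as a block within clones (0.74 ± 0.313, adjusted p = 0.0367), without clone 66 replicate 2 (0.79, adjusted p = 0.0365) and in DESeq2 (0.77, adjusted p = 0.0428).

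Cd9 (chr6:125460266-125494791, minus strand) and Eng (chr2:32646595-32682669, plus strand), the tetraspanin and the TGF-β co-receptor, fell and then partly recovered. The lowest, median and highest Cd9 levels in clone 48 were 100, 196 and 225 CPM on day 0, 16.6, 23.5 and 35.4 CPM on day 2 and 52.3, 80.0 and 112 CPM on day 6. In clone 66 they were 56.2, 136 and 195 CPM on day 0, 24.5, 36.8 and 44.3 CPM on day 2 and 47.0, 70.8 and 80.3 CPM on day 6. Day 2 lay below both other days without overlap in each clone, and days 0 and 6 overlapped. Cd9 fell by 2.29 ± 0.207 (log2, adjusted p = 4.95e-12) to day 2 and rose by 1.26 ± 0.201 (adjusted p = 1.62e-06) from day 2 to day 6, which left it 2.05-fold below day 0 (log2 fold change -1.04 ± 0.197, adjusted p = 2.17e-05). Cd9 also followed the replicate number, since the library numbered 3 was the highest of its 3 in all 12 sets of clone, genotype and day. Of its exonic bases, 10.67% are shared with Gm26728, and pairs over both genes were left out of the counts.

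Eng had 2.20, 2.69 and 3.01 CPM as its lowest, median and highest level on day 0 in clone 48, 0.139, 0.300 and 0.506 CPM on day 2 and 0.571, 1.15 and 1.72 CPM on day 6. In clone 66 it had 2.07, 2.41 and 3.00 CPM on day 0, 0.224, 0.418 and 0.718 CPM on day 2 and 0.804, 1.17 and 1.83 CPM on day 6. The 3 days did not overlap within either clone. Eng fell by 2.73 ± 0.192 (log2, adjusted p = 7.67e-15) to day 2 and rose by 1.64 ± 0.206 (adjusted p = 1.5e-08) from day 2 to day 6, ending 2.12-fold below day 0 (log2 fold change -1.09 ± 0.161, adjusted p = 3.35e-07). These values rest on 36 to 64 counts per library on day 0 and 2 to 13 on day 2.

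Between day 2 and day 6, Eng, Cd9 and Pdgfrb rose, Ly6a, Cd24a and Pdgfra fell, and Cd34 and Pi16 did not pass the test. Of all genes tested, 31.9% rose and 30.1% fell over this step. Pi16 showed no change over both clones in any of the 3 comparisons that passed the test. Its log2 fold change was 0.18 ± 0.253 (95% interval -0.33 to 0.70) from day 0 to day 2, -0.09 ± 0.258 (-0.62 to 0.43) from day 0 to day 6 and -0.28 ± 0.256 (-0.80 to 0.24) from day 2 to day 6. Scaling by library size alone instead of TMM moved the median of all genes by -0.26 (log2) from day 0 to day 2, by -0.19 from day 0 to day 6 and by 0.07 from day 2 to day 6, and the share of higher genes among those called went from 48.9% to 33.6%, from 48.2% to 34.9% and from 51.4% to 57.7%. The directions of the called members did not change with it, and of their calls that of Pdgfra between day 2 and day 6 was lost (log2 fold change -0.43, adjusted p = 0.0617).

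Fitted within each clone, 7 of the 8 tested members changed between day 0 and day 2 in clone 48, where 65.3% of all genes did, and 8 did in clone 66, where 61.6% did. Between day 0 and day 6 it was 8 in clone 48 against 56.3% of genes and 7 in clone 66 against 57.7%. Between day 2 and day 6 it was 4 in clone 48 against 51.1% and 5 in clone 66 against 50.5%, of which 3 were left without clone 66 replicate 2 or without its replicate 3. In clone 66 the fall of Cd9 from day 0 to day 6 was lost without replicate 3 (-0.72, adjusted p = 0.0648). That of Eng was lost without replicate 2 (-0.60, adjusted p = 0.0785). Shares of this size among all genes leave little to read from the members' counts, and the sizes of the changes carry the description.

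**Figure D3:**
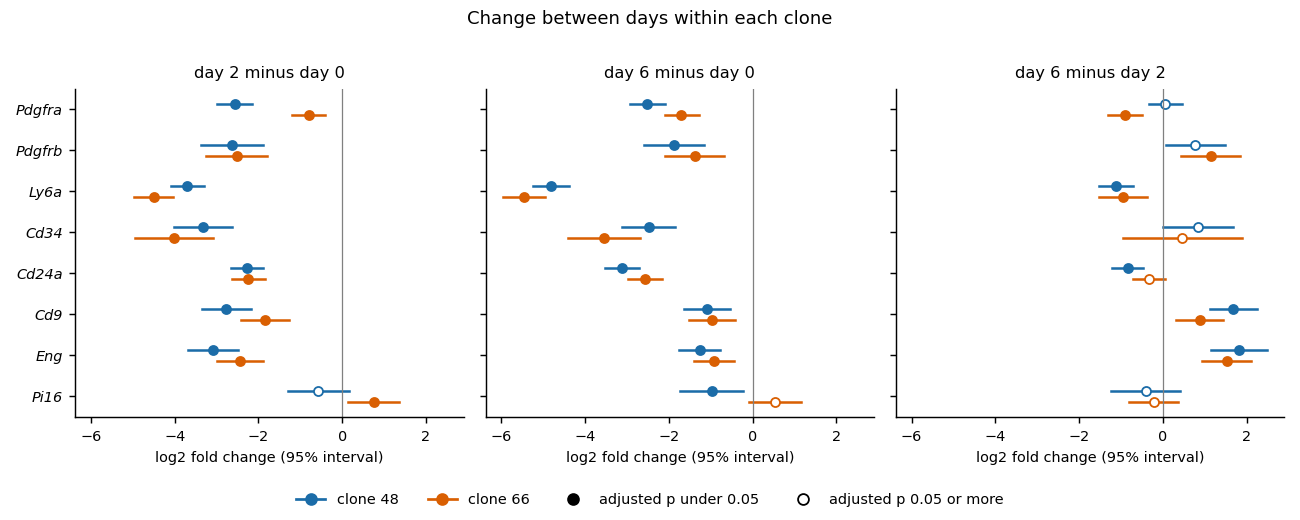
Log2 fold change between days of the 8 tested markers within clone 48 (blue) and clone 66 (orange). Points are estimates, lines 95% intervals, and filled points have an adjusted p under 0.05. Pdgfra falls by 2.57 in clone 48 and by 0.80 in clone 66 from day 0 to day 2, and Ly6a, Cd34, Cd24a, Pdgfrb, Cd9 and Eng fall in both.

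Promoter sequence is shown for 4 of the members that fell together by day 2, to let the regions upstream of their starts be compared. RefSeq promoters of GRCm38.p6 held 6 of the 10 members (Pdgfra, Cd34, Pi16, Dpp4, Cd9 and Eng). The lines give the bases from 250 to 51 before the RefSeq start, 5′ to 3′ on the gene's strand, of Pdgfra (chr5:75152001-75152200, plus strand), Cd34 (chr1:194938571-194938770, plus strand), Cd9 (chr6:125494811-125495010, minus strand) and Eng (chr2:32646345-32646544, plus strand). The Cd9 window overlaps an exon of the antisense gene Gm26728. Bases just after the RefSeq start were found in a GENCODE transcript of the gene for Cd34, Cd9 and Eng, but not for Pdgfra. Capitals mark matches to the motifs searched.
Pdgfra: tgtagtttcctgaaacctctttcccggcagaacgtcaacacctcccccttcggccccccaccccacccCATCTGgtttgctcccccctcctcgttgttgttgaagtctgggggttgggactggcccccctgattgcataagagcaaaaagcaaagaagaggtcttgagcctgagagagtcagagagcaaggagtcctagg
Cd34: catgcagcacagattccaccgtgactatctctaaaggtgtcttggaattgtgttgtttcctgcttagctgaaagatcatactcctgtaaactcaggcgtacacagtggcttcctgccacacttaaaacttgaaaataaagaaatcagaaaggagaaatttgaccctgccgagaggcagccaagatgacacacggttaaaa
Cd9: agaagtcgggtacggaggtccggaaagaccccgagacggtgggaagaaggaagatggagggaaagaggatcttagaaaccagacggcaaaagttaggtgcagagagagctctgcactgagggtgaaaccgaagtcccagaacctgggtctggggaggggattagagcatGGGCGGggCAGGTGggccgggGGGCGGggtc
Eng: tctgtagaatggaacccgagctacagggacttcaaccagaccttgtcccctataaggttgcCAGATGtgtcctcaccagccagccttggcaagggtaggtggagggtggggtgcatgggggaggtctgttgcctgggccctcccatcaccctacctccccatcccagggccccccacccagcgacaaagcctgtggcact

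Over the 250 bases before the start and on both strands, the E-box CANNTG matched once in Pdgfra, once in Eng and 3 times in Cd9, and 66.2% of all 32851 promoters held it. The GC box GGGCGG matched 2 times in Cd9 and is in 32.7% of promoters. TATAAA (12.4% of promoters), CCAAT (33.8%), TGANTCA (6.75%) and GGAATG (12.6%) matched in none of these 4, and Cd34 held none of the 6 motifs. No searched motif was therefore common to the 4 windows. The share of G and C was 54.4% in Pdgfra, 46.4% in Cd34, 61.6% in Cd9 and 62.4% in Eng.

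Genes that act with the members were described from lists. Among all genes tested, 37.5% fell and 35.8% rose from day 0 to day 2. From day 0 to day 6, 35.4% fell and 32.9% rose. Of the 5 PDGF ligands and decoy genes, 3 were tested, and all 3 fell from day 0 to day 2 and from day 0 to day 6. Pdgfa had 20.8 ± 2.75 CPM on day 0 and 12.7 ± 0.778 CPM on day 2 in clone 48, and over both clones its log2 fold change to day 2 was -1.07 ± 0.108 (adjusted p = 7.26e-11). Pdgfb had 6 to 22 counts per library on day 0 and at most 1 on day 2, so its fall has no firm size. Of the 10 ligands and receptors that work with endoglin, 8 were tested. From day 0 to day 2, 2 rose and 5 fell, and from day 0 to day 6, 3 rose and 3 fell. Acvrl1 had the largest change among those called, with a log2 fold change of -2.67 ± 0.764 (adjusted p = 0.00257) to day 2 and 2.60 ± 0.357 (adjusted p = 1.9e-07) to day 6. From day 2 to day 6 it rose by 5.27 ± 0.544 (adjusted p = 1.06e-09). The SE of Acvrl1 to day 2 was larger than that of Pdgfb (0.362), so the sizes of its changes to and from day 2 are not firm. Tgfb2 had a log2 fold change of -2.25 ± 0.222 (adjusted p = 5.23e-11) to day 6, and Tgfbr1, a type I receptor, of 1.58 ± 0.0737 (adjusted p = 9.75e-20). Gdf2 and Bmp10, ligands of endoglin, never exceeded 3 counts in a library.

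Of the 13 tetraspanins and CD9 partners, 11 were tested. From day 0 to day 2, 9 fell and 1 rose, against 37.5% and 35.8% of all genes. From day 2 to day 6, 9 rose and none fell, against 31.9% and 30.1% of all genes. The median log2 fold change of the list over these steps was -0.71 and 0.55, against -0.02 and 0.01 over all genes. Tspan6 fell most by day 2 (log2 fold change -2.64 ± 0.123, adjusted p = 9.04e-20), followed by Ptgfrn, a binding partner of CD9 (-1.93 ± 0.113, adjusted p = 5.44e-17). Of the 11 other Ly6 family genes, 3 were tested. Ly6c1 went from 57.6 ± 9.68 CPM on day 0 to 6.29 ± 0.768 CPM on day 2 in clone 48 and from 16.2 ± 3.48 to 0.592 ± 0.0732 CPM in clone 66, with a log2 fold change over both clones of -3.79 ± 0.179 (adjusted p = 1.41e-19). Ly6e fell as well, while Ly6h did not pass the test by day 2 and was higher on day 6 (log2 fold change 3.78 ± 0.275, adjusted p = 2.19e-14).

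The other lists placed the members among stages of the lineage. By day 6, 35.4% of all genes tested had fallen and 32.9% had risen. Of 11 further markers of the interstitial DPP4-positive progenitor, 7 were tested, and by day 6, 4 had fallen and 3 had risen. Anxa3 fell from 224 ± 49.4 to 14.5 ± 2.46 CPM between day 0 and day 6 in clone 48 (log2 fold change over both clones -3.88 ± 0.167, adjusted p = 9.01e-21), Nt5e rose (3.77 ± 0.244, adjusted p = 9.5e-16), and Cd55 never exceeded 3 counts. Of 6 markers of CD142-positive stromal cells, 5 were tested, and by day 6, 4 had fallen and 1 had risen. F3, the gene for CD142 itself, had a log2 fold change of -1.49 ± 0.124 (adjusted p = 7.28e-13). Of 6 markers of committed pre-adipocytes, 4 were tested, and all 4 rose by day 6, as did all 7 adipocyte markers. Of 7 brown adipocyte markers, 3 were tested, and all 3 rose. Dlk1 of the committed list and Zic1 of the brown list never exceeded 3 counts. The brown list summed to 29.8 to 46.1 CPM on day 0 and 62.5 to 93.2 CPM on day 6 in clone 48. In clone 66 the days overlapped, with 10.7 to 18.1 and 11.7 to 26.1 CPM. The summed level of the 7 adipocyte markers was 36.1 to 79.0 CPM on day 0 and 3918 to 5939 CPM on day 6, so the 7 members that fell did so while adipocyte transcripts rose.

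The second comparison is between the clones, which were isolated separately from the same edited clonal line and differ in library pool. On day 0, clone 66 had lower Pdgfra, Ly6a, Cd24a and Cd34 than clone 48, and no member was higher, against 11.1% of all genes lower and 12.6% higher in clone 66. Ly6a differed by -1.90 ± 0.182 (log2, adjusted p = 2.64e-09) on day 0, by -2.70 ± 0.222 (adjusted p = 1.06e-10) on day 2 and by -2.54 ± 0.249 (adjusted p = 5.51e-09) on day 6. Cd24a differed by -1.94 ± 0.187 (adjusted p = 3.03e-09), -1.90 ± 0.191 (adjusted p = 5.71e-09) and -1.39 ± 0.191 (adjusted p = 1.88e-06) on the same days. For both genes the clones did not overlap on any day. Ly6c1 was also lower in clone 66 on every day, by -1.83 ± 0.141 (adjusted p = 3.23e-11) on day 0.

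Cd34 was lower in clone 66 by -1.27 ± 0.271 (log2, adjusted p = 0.000741) on day 0, -1.97 ± 0.585 (adjusted p = 0.0108) on day 2 and -2.34 ± 0.481 (adjusted p = 0.000443) on day 6. The day 2 value rests on 10 counts in the 6 libraries of clone 66 and did not pass without clone 48 replicate 1 (-1.67, adjusted p = 0.076), and the day 6 value was -3.01 (adjusted p = 0.000419) without clone 66 replicate 1. Pdgfra was lower in clone 66 by -1.41 ± 0.194 (adjusted p = 1.79e-06) on day 0. On day 2 its difference was 0.36 ± 0.194 (95% interval -0.03 to 0.76, adjusted p = 0.167). On day 6 it was -0.59 ± 0.196 (adjusted p = 0.0242), which did not pass without clone 48 replicate 3 (-0.41, adjusted p = 0.162), clone 66 replicate 1 (-0.47, adjusted p = 0.0943) or clone 66 replicate 2 (-0.50, adjusted p = 0.116).

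Pdgfrb and Pi16 went the other way. On day 2, 3 members were lower and 2 higher in clone 66, against 15.5% and 14.5% of all genes, and on day 6, 4 were lower and 2 higher, against 12.8% and 13.4%. With library size alone, the share of higher genes among those called on day 6 went from 51.2% to 41.0%. Pdgfrb was higher in clone 66 by 1.03 ± 0.346 (log2, adjusted p = 0.0244) on day 2 and 1.4 ± 0.345 (adjusted p = 0.00273) on day 6. On day 0 it differed by 0.91 ± 0.339 (adjusted p = 0.0514), and this passed without clone 48 replicate 3 (0.89, adjusted p = 0.0259), in DESeq2 (0.90, adjusted p = 0.0344) and with no filter (0.91, adjusted p = 0.00348). The day 2 call was lost without clone 48 replicate 1 (0.90, adjusted p = 0.0907) or replicate 2 (0.79, adjusted p = 0.164) and without clone 66 replicate 2 (1.08, adjusted p = 0.0617) or replicate 3 (0.88, adjusted p = 0.108), and the day 6 call without clone 48 replicate 1 (1.10, adjusted p = 0.0502). Without clone 48 replicate 3 the day 6 difference was 2.17 (adjusted p = 1.07e-05), and in that clone the replicate 3 libraries had 69.6 and 76.4 CPM and the other 4 had 19.4 to 26.5 CPM.

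Pi16 in clone 48 had 0.473 ± 0.173 CPM on day 0, 0.304 ± 0.077 CPM on day 2 and 0.233 ± 0.112 CPM on day 6, and in clone 66 it had 0.400 ± 0.227, 0.672 ± 0.210 and 0.580 ± 0.111 CPM (SD, n = 6). The clones overlapped on day 0 and were separate on days 2 and 6, and the differences were 1.12 ± 0.332 (log2, adjusted p = 0.0106) on day 2 and 1.30 ± 0.35 (adjusted p = 0.00598) on day 6. Without clone 48 replicate 2 neither passed (0.99, adjusted p = 0.068, and 1.01, adjusted p = 0.0825), nor did the day 2 value without clone 66 replicate 3 (0.94, adjusted p = 0.0698). Within clone 48 Pi16 fell from day 0 to day 6 (log2 fold change -0.97 ± 0.369, adjusted p = 0.0259) and within clone 66 it rose from day 0 to day 2 (0.75 ± 0.299, adjusted p = 0.0305). The first was lost without the clone 48 SA day 0 replicate 1 library (-0.85, adjusted p = 0.0652), without clone 48 replicate 1 (-1.18, adjusted p = 0.0593) without replicate 2 (-0.58, adjusted p = 0.309) and with no filter (-0.93, adjusted p = 0.0675). The second was lost without clone 66 replicate 1 (0.48, adjusted p = 0.272) or replicate 3 (0.32, adjusted p = 0.477) and with library size alone (0.48, adjusted p = 0.178), and was 1.55 (adjusted p = 0.000335) without clone 66 replicate 2.

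Cd9 and Eng did not pass the test between clones on any day. The Cd9 difference was -0.40 ± 0.267 (95% interval -0.95 to 0.14) on day 0, 0.52 ± 0.273 (-0.04 to 1.07) on day 2 and -0.29 ± 0.268 (-0.84 to 0.26) on day 6, and the day 2 value passed without clone 48 replicate 3 (0.86, adjusted p = 0.023) or clone 66 replicate 1 (0.65, adjusted p = 0.0441). The Eng difference was -0.12 ± 0.217 (-0.56 to 0.32), 0.53 ± 0.365 (-0.22 to 1.27) and 0.22 ± 0.252 (-0.29 to 0.74). With the replicate number as a block within clones, Pdgfrb (0.84, adjusted p = 0.00752) and Cd9 (-0.48, adjusted p = 0.00887) passed on day 0 and Cd9 (0.56, adjusted p = 0.0036) on day 2. That fit takes the spread between the replicate sets of a clone out of the error, so its p-values for a difference between clones are too small.

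**Figure D4:**
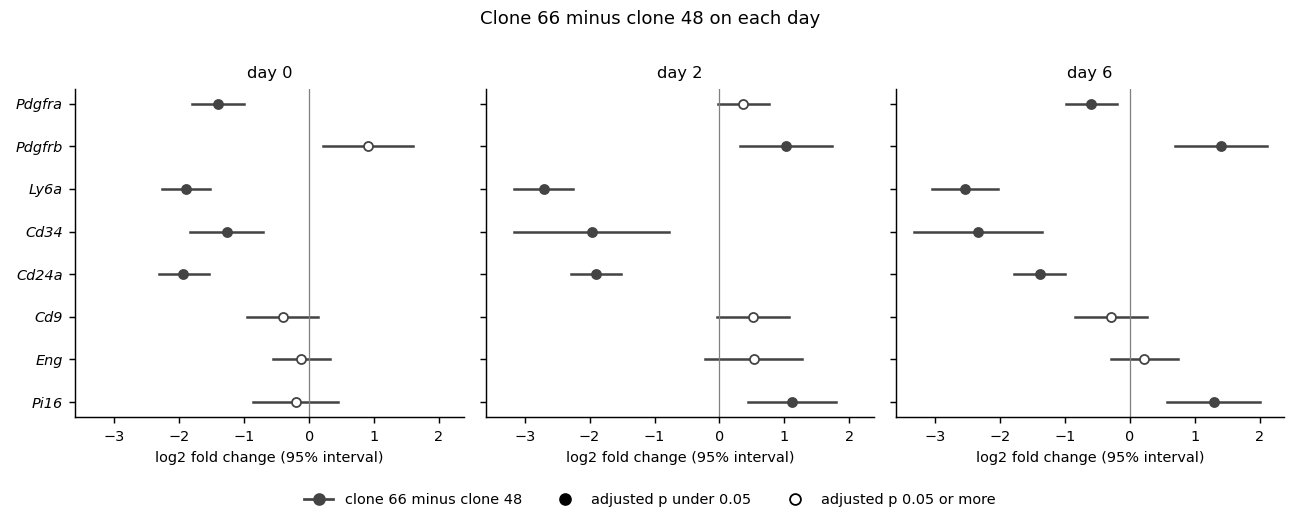
Log2 difference of clone 66 from clone 48 on each day for the 8 tested markers, with 95% intervals, where filled points have an adjusted p under 0.05. Ly6a, Cd24a and Cd34 lie to the left of 0 on all 3 days, Pdgfrb and Pi16 to the right on days 2 and 6, and Cd9 and Eng have intervals that include 0.

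Whether the clones changed differently over time was tested directly. Pdgfra was the only member called for a different change from day 0 to day 2, where 6.84% of all genes were. It fell by 2.57 ± 0.203 (log2) in clone 48, from 133 ± 24.1 to 22.5 ± 5.45 CPM, and by 0.80 ± 0.193 in clone 66, from 50.3 ± 15.1 to 29.1 ± 6.40 CPM (SD, n = 6). The changes differed by 1.77 ± 0.274 (adjusted p = 5.88e-05), and this passed in all 14 alternatives computed for it, although the fall within clone 66 itself did not pass without its replicate 2 (-0.45, adjusted p = 0.117). From day 2 to day 6, 6.18% of genes were called, and Pdgfra again differed (-0.96 ± 0.276, adjusted p = 0.0327), with 0.05 ± 0.195 in clone 48 and -0.90 ± 0.196 in clone 66. This second difference was lost without clone 48 replicate 2 (-0.82, adjusted p = 0.177) or 3 (-0.97, adjusted p = 0.0869) and without clone 66 replicate 1 (-0.93, adjusted p = 0.0742) or 2 (-0.94, adjusted p = 0.106).

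From day 0 to day 6 no member and 3.85% of all genes were called (54.7% of them higher, or 43.3% with library size alone), and Pdgfra differed by 0.82 ± 0.273 (adjusted p = 0.0987). With the replicate number as a block within clones, which also ties the 3 days, Pdgfra passed over this span (0.84, adjusted p = 0.016). So did Ly6a (-0.80, adjusted p = 0.0198) and Cd9 (1.04, adjusted p = 0.000819) from day 0 to day 2 and Cd9 (-0.83, adjusted p = 0.00708) from day 2 to day 6. Without clone 66 replicate 2, Pdgfra (1.21, adjusted p = 0.0332) and Pi16 (2.07, adjusted p = 0.0137) passed from day 0 to day 6 and Pi16 (2.14, adjusted p = 0.00474) from day 0 to day 2. For Pi16 with all libraries the difference was 1.32 ± 0.464 (adjusted p = 0.0869) to day 2 and 1.5 ± 0.478 (adjusted p = 0.0788) to day 6. Without the block, Ly6a differed by -0.80 (adjusted p = 0.0873) and Cd9 by 0.92 (adjusted p = 0.171) from day 0 to day 2. Cd9 differed by -0.81 (adjusted p = 0.26) from day 2 to day 6. An unadjusted p under 0.05 was found for 4 members from day 0 to day 2. The intervals for Pdgfrb (-0.86 to 1.10), Cd24a (-0.50 to 0.57), Cd34 (-1.98 to 0.59) and Eng (-0.22 to 1.52) over that step included 0.

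The comparison for which the cells were made is Rxra SA against Rxra WT. No member passed the test on any day, nor did any gene of the whole table (0.0% of 16723 on day 0, 0.0% on day 2 and 0.0% on day 6 by edgeR). No member had an unadjusted p under 0.05 either, while 139, 162 and 125 of all genes did on days 0, 2 and 6. These p-values come from the fit without the pairing of WT and SA libraries, so they can be too large. DESeq2 also called no gene on any of the 3 days. With the replicate pairing as a block within each day, 1 gene was called on day 2, Chn1 (log2 difference -0.74, adjusted p = 0.00173), which was named after its value was seen. The log2 differences of the 8 members lay between -0.31 and 0.31 on day 0, -0.19 and 0.27 on day 2 and -0.30 and 0.33 on day 6.

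Pdgfra had 95.9 ± 52.1 CPM in WT and 87.8 ± 47.0 CPM in SA on day 0 (SD, n = 6 over both clones), a log2 difference of -0.14 with a 95% interval of -0.71 to 0.43. For Pdgfrb the difference was -0.12 (-0.77 to 0.52) and for Ly6a it was -0.00 (-0.38 to 0.37). On day 6 Ly6a had the largest difference of the members, 0.33 (-0.21 to 0.87), with SA higher in 5 of 6 same-numbered pairs. In clone 48 its 3 SA libraries (3.07, 3.77 and 3.83 CPM) all lay above its 3 WT libraries (1.74, 2.49 and 2.98 CPM), while in clone 66 SA (0.401, 0.482 and 0.522 CPM) lay within the range of WT (0.321, 0.385 and 0.902 CPM). The difference between the clones in this effect did not pass the test (-0.76 ± 0.52, adjusted p = 1.0). Cd24a was higher in SA in 5 of 6 same-numbered pairs on each of the 3 days, with differences of 0.23 (-0.15 to 0.60), 0.11 (-0.28 to 0.49) and 0.15 (-0.24 to 0.54). Cd9 was higher in SA in 1 of 6 pairs on day 0 and in 6 of 6 on day 2, with differences of -0.31 (-0.87 to 0.25) and 0.27 (-0.30 to 0.84). SA was also higher in 5 of 6 pairs for Cd34 on day 0 (0.31, -0.26 to 0.89) and for Eng on day 6 (0.25, -0.24 to 0.75). Over all days, same-numbered libraries deviated in the same direction in 9 of 18 pairs for Cd34 and 11 for Eng. For Cd24a it was 15 and for Cd9 17. Cd34 and Pi16 had the widest intervals, for example -1.22 to 1.03 for Cd34 on day 2, where it had 0 to 9 counts per library.

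The effect of genotype on the change between days was called for no member and for 0.0%, 0.0% and 0.0% of all genes over the 3 pairs of days. At an unadjusted p under 0.05 there were 144, 128 and 153 genes and none of the members. Whether SA differed from WT by unequal amounts in clones 48 and 66 was also tested, and such a difference was called for no member and for 0.0%, 0.0% and 0.0% of genes on days 0, 2 and 6, with 283, 214 and 200 genes and no member at an unadjusted p under 0.05. The largest such difference among the members was 0.83 ± 1.25 for Cd34 on day 2, on counts of 0 to 9. The unadjusted p-values behind these counts of genes also come from fits without the pairing of WT and SA libraries.

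**Figure D5:**
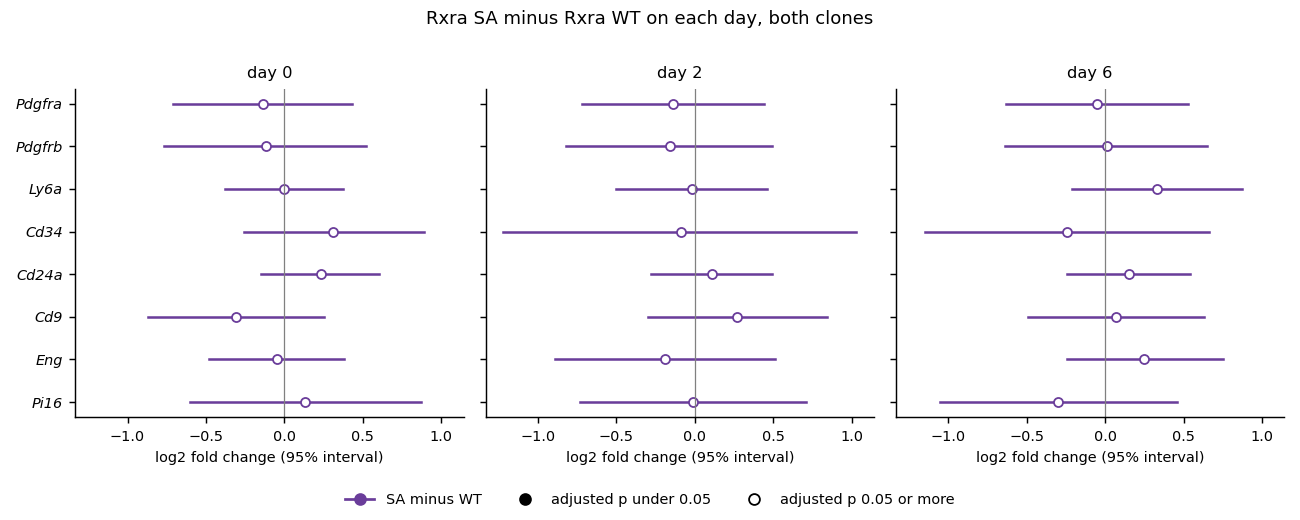
Log2 difference of Rxra SA from Rxra WT on each day for the 8 tested markers, over both clones, with 95% intervals from the fit without pairing. All points are open, since none had an adjusted p under 0.05, and every interval includes 0.

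Across the 36 libraries some members followed each other closely, which describes libraries that share days and clones. Ly6a and Cd24a had a Pearson correlation of 0.974 of their log2 CPM, Ly6a and Cd34 of 0.916 and Cd9 and Eng of 0.823, whereas Pdgfrb and Cd24a had 0.279 and Pi16 lay between -0.259 and 0.244 with every other member. Among 9725 or 9726 other genes of average log2 CPM of at least 3, Pdgfrb was most like Mrc2 (r = 0.969) and Plekhg2 (0.963), and Pdgfra most like Shroom4 (0.929) and Slc5a7 (0.923). Ly6a was most like Ttc8 (0.975) and Cd24a (0.974), and Cd24a most like Pawr (0.977) and Ly6a. Cd34 was most like B230219D22Rik (0.967) and Kif11 (0.942), Cd9 most like Kif1bp (0.943) and Rbms1 (0.941), and Eng most like Crip1 (0.939) and Rab7b (0.937).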

How the data were processed

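Total RNA of 36 libraries was sequenced as stranded paired ends. Per the labels and the study's methods, the authors aligned reads to mm10 with STAR 2.7.0d and counted pairs per GENCODE gene with featureCounts 1.6.2 without using strand, leaving out pairs that matched several places or genes. The deposited values are raw counts per gene. Clone, genotype and day came from the sample labels. Genes were filtered with filterByExpr by genotype and day, scaled by TMM and tested with the quasi-likelihood test of edgeR 4.0.16 in R 4.3.3, with Benjamini-Hochberg adjustment over all 16723 genes and a threshold of 0.05. Day and genotype were fitted with clone as a term, and clones with a mean for each of 12 groups. SE is the absolute log2 fold change over the square root of F. CPM were computed from counts and TMM-scaled library sizes. Alternatives included DESeq2 1.42.0, other filters and scalings, a replicate block and leaving out each replicate.

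Replicate numbers were taken as pairing WT with SA libraries, because same-numbered libraries of a clone and day deviated together from their group means (r between 0.176 and 0.93 in 18 of 18 pairs, 9381 genes, all above 0.1). Named genes were the members, up to 3 genes of each of 9 lists by absolute fold change among those called, and the 2 genes most correlated with each member, and genes outside this rule are background or marker checks. Members and lists were chosen with earlier results of these data known. Depth was 11351078 to 24349263 counts per library, and limits from 3 counts cover counting error only.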

Additional observations from a re-analysis of the deposited data

Results flagged for a closer look

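Of 48 sets of 6 libraries (8 markers in each clone and day), 1 held a library far from the rest. Ly6a had 0.902 CPM in clone 66 WT replicate 1 on day 6, and the next library had 0.522 CPM, a gap of 0.654 of the range where 0.625 is the limit. Chance gives such a gap in about 1 in 20 sets. The change in Pdgfra differed between the clones from day 0 to day 2 by 1.77 on the log2 scale (edgeR interaction term, adjusted p = 5.88e-05) and from day 2 to day 6 by -0.96 (adjusted p = 0.0327). Clone and library pool cannot be told apart.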

How the results depend on the processing

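Over 17 alternative settings, 2856 values of single members were recomputed. Of these, 2722 kept their direction and side of the threshold, 70 changed sign without being called under either setting, 37 lost and 27 gained a call, and no value that was called in either setting reversed. With no clone term, 3 instead of 6 members were called between day 2 and day 6. Between clones on day 2, 5 were called and between 3 and 6 with 1 replicate left out. The replicate block groups the libraries of a clone that share a number, over WT and SA and over all 3 days. Correlation of same-numbered libraries was computed only within a clone and day, so grouping across days was not tested. With this block, members whose change differed between clones went from 1 to 3 (day 0 to day 2), 0 to 1 (day 0 to day 6) and 1 to 2 (day 2 to day 6). The genes called went from 1144 to 2248, 644 to 1369 and 1033 to 2082. Leaving out 1 replicate gave 1 to 2, 0 to 2 and 0 to 1 members. With no filter, 1 member was called from day 0 to day 6. With the SA and WT comparison paired within days, 1 gene was called on day 2. The difference between clones in the genotype effect on day 0 called 5 genes with no filter and 3 with the replicate block. Beside the changes given with the results, the block also brought the day 2 to day 6 changes within clone 48 of Pdgfrb (0.69, adjusted p = 0.0195) and Cd34 (0.84, adjusted p = 0.0346) and within clone 66 of Cd24a (-0.36, adjusted p = 0.0334) past the threshold, and changed no other member's call. The cause of these changes was not tested. Depth limits Dpp4, Thy1, Pi16 and, after day 0, Cd34 and Eng.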
